A study of Mus musculus with 10 samples.

Results

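Notch receptors, their ligands and the HES and HEY genes were followed by name across 10 RNA libraries of mouse olfactory epithelium cultures. The members are 3 receptor genes (Notch1, Notch2 and Notch3), 3 ligand genes (Jag1, Jag2 and Dll1) and 4 genes of the HES and HEY families (Hes1, Hes6, Hey1 and Heyl). They are 10 of the 41091 gene identifiers in the count tables, found by matching Ensembl identifiers to GENCODE M21 symbols. All 10 were among the 16669 genes kept after genes with low counts were removed. The study asked what knockdown of the Polycomb proteins CBX7 and CBX8 does in regenerating olfactory tissue. Polycomb repressive complex 1, to which both proteins belong, binds methylated histone H3 and helps keep developmental genes silent.

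There were 3 groups. The shCBX8 group (3 libraries, replicates 1, 2 and 6) received lentivirus with a short hairpin RNA against Cbx8, the shCBX7 group (3 libraries, replicates 1, 2 and 5) a hairpin against Cbx7, and the shCTR group (4 libraries, replicates 1, 2, 5 and 6) a scrambled hairpin with no target. All groups share the C57BL6 strain, adult donors, a methimazole lesion 9 days before collection, enzymatic dissociation, and adherent growth on gelatin-coated plastic in NeuroCult medium, to which EGF, FGF2 and heparin were added. Methimazole destroys the olfactory epithelium, which then regrows from basal stem cells. Every group was transduced, so no untransduced culture enters a comparison, and the labels name a single hairpin treatment for each target. The labels call the replicates biologic without naming separate animals or cultures. The p-values therefore rest on the spread among these libraries, part or all of which may be technical.

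Notch receptors are cut by ADAM proteases and then by gamma-secretase when a Jagged or Delta ligand on a neighbouring cell binds them. The freed intracellular part joins the DNA-binding protein RBPJ and switches on target genes, of which Hes1, Hey1 and Heyl are classical examples. HES1 is a basic helix-loop-helix repressor that keeps progenitors from becoming neurons, and HES6 is a related protein that counters HES1. In the olfactory epithelium, Notch signalling is known for its part in keeping horizontal basal cells dormant and in setting apart sustentacular cells and neurons.

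The receptor genes lie on 3 chromosomes of the GRCm38/mm10 build: Notch1 on chromosome 2 (26457903 to 26516663, minus strand), Notch2 on chromosome 3 (98013527 to 98150361, plus strand) and Notch3 on chromosome 17 (32120820 to 32166852, minus strand). Among the ligand genes, Jag1 lies on chromosome 2 (137081456 to 137116644), Jag2 on chromosome 12 (112907819 to 112929776) and Dll1 on chromosome 17 (15367354 to 15376872), all on the minus strand. Hes1 lies on chromosome 16 (30064384 to 30067796, plus strand), Hes6 on chromosome 1 (91411483 to 91414038, minus strand), Hey1 on chromosome 3 (8663359 to 8667256, minus strand) and Heyl on chromosome 4 (123233556 to 123249875, plus strand). Antisense or opposite-strand genes overlap exons of Notch1, Notch3 and Dll1. The counts used here are those of the strand that the genes are transcribed from. Reads on the other strand came to at most 1.66 CPM for any member (Notch1 in shCTR 1). A same-strand gene model, Gm42820, which has no row in the count tables, shares 541 exonic bases with Notch2.

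Hes6 is the member that passed the test described further on, so its upstream sequence is shown. RefSeq, on the same build (GRCm38.p6), gave windows before annotated transcript starts for 7 of the 10 members, 9 windows in all. Hes1, Hey1 and Heyl had no entry. Hes6 has 2 windows of 250 bases, both printed 5′ to 3′ on its own minus strand. The first, chr1:91414039-91414288, lies before the most upstream annotated Hes6 start. The second, chr1:91413223-91413472, lies before another annotated start, within the span of the gene given above. Capitals mark letters that match a motif searched on both strands.
Hes6 window 1: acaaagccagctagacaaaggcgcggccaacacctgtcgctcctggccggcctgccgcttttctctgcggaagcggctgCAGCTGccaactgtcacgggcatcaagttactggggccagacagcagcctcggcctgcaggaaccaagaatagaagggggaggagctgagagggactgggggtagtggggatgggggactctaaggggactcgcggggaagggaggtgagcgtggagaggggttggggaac
Hes6 window 2: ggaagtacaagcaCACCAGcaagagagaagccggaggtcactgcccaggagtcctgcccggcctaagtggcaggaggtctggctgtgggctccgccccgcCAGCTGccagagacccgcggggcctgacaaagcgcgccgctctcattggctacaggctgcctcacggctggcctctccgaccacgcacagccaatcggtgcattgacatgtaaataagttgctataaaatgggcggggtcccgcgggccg
The E-box CAGCTG, a site type that basic helix-loop-helix activators can bind, stood in both Hes6 windows and in 4 of the 9 member windows, against 13.0% of 32817 RefSeq windows of this length. The N-box CACNAG, the site type of HES repressors, stood in the second Hes6 window as CACCAG and in 4 of the 9 member windows, against 36.7% of all windows. The RBPJ core TGGGAA and the E-box CACGTG stood in 0 of the 9 member windows, against 21.6% and 6.02% of all windows. These matches describe letters in the windows and nothing about binding.

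Gene counts ran from 22763014 to 50463172 per library. Cbx8 fell in shCBX8 (log2 fold change -1.31, SE 0.22, adjusted p = 0.00416), while Cbx7 did not pass in shCBX7 (-0.67, SE 0.48, adjusted p = 0.929), so the level of Cbx7 does not check that label. Of the markers that define the labelled tissue, Krt5 and Krt14 of horizontal basal cells were measured in all 10 libraries, at 8.37 to 336 CPM and 32.6 to 648 CPM. Omp of mature neurons reached at most 0.605 CPM and Cyp2g1 of sustentacular cells 1.94 CPM. Fibroblast marker sums, given below, were 223 to 3268 CPM in shCBX8, 5700 to 18806 CPM in shCBX7 and 5892 to 33893 CPM in shCTR. Background, read as opposite-strand counts over 1455 olfactory and vomeronasal receptor genes, came to 13.2 to 25.4 CPM in shCBX8, 10.5 to 14.9 CPM in shCBX7 and 30.7 to 103 CPM in shCTR. Unmapped reads made up 7.28 to 7.81% of reads in shCBX8, 5.03 to 6.20% in shCBX7 and 9.83 to 21.7% in shCTR. Reads assigned to no gene on the counted strand made up 15.4 to 18.6% in shCBX8, 12.5 to 15.0% in shCBX7 and 20.4 to 23.6% in shCTR. These last 3 measures were higher in every shCTR library than in any shCBX8 or shCBX7 library, and their part in the comparisons with shCTR was not tested. A fit with the receptor background as a covariate is given below. Since that background sets shCTR apart from the other groups, the fit cannot cleanly separate it from the group. Levels are given as CPM, the counts per 1000000 of the scaled library size, and as CPM per kilobase of exon (RPKM) where genes are compared with each other.

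The receptors were led by Notch2, the ligands by Jag1, and the HES and HEY genes by Hes6 and Hes1, while Hey1 and Heyl were nearly silent. Per length, Notch2 averaged 15.8 ± 3.04 RPKM in shCBX8 and 22.4 ± 5.08 RPKM in shCBX7 (SD, n = 3 each), and 19.3 ± 4.31 RPKM in shCTR (SD, n = 4). It held 59.4 to 67.3% of the summed receptor RPKM in shCBX8 libraries, 56.8 to 76.6% in shCBX7 libraries and 57.0 to 77.7% in shCTR libraries. Notch3 was next, at 5.64 ± 0.55, 5.73 ± 2.09 and 5.21 ± 2.01 RPKM in shCBX8, shCBX7 and shCTR. The level of Notch1 was 3.52 ± 0.28, 3.99 ± 1.89 and 4.69 ± 0.88 RPKM in the same groups. Notch2 thus stood above the other receptors in every library, whereas Notch3 and Notch1 overlapped in shCBX7 and shCTR and were apart in shCBX8.

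Jag1, the ligand used by many epithelia, averaged 11 ± 2.67 RPKM in shCBX8, 10.8 ± 6.35 RPKM in shCBX7 and 10.6 ± 3.25 RPKM in shCTR. Dll1, a Delta ligand of neuronal progenitors, averaged 8.0 ± 2.13, 6.68 ± 3.70 and 4.90 ± 2.70 RPKM in these groups. Jag2, the second Jagged ligand, averaged 1.85 ± 0.18, 1.06 ± 1.04 and 1.18 ± 0.78 RPKM. Jag2 was the lowest ligand in each library. Dll1 made up 30.4 to 52.0% of the summed ligand RPKM in shCBX8, 22.3 to 63.5% in shCBX7 and 25.1 to 34.5% in shCTR, and it exceeded Jag1 in shCBX8 2 and shCBX7 1.

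The order of the 10 genes changed at its top in shCBX8. Hes6 (31.3 ± 11 RPKM) and Hes1 (29.0 ± 12 RPKM) were the highest on average in shCBX8, above Notch2, with which the library values of Hes1 overlapped. Notch2 was highest in shCBX7 and shCTR, apart from Hes6 (13.2 ± 1.58 RPKM in shCBX7 and 11.7 ± 1.1 RPKM in shCTR), which was next and overlapped with Jag1. Hes1 averaged 10.5 ± 6.87 RPKM in shCBX7 and 9.02 ± 6.83 RPKM in shCTR, and overlapped with its neighbours Jag1 and Dll1 or Notch3. From Jag2 down the order was the same in all groups: Jag2, then Hey1 at 0.316 ± 0.17, 0.235 ± 0.17 and 0.313 ± 0.095 RPKM in shCBX8, shCBX7 and shCTR, then Heyl at 0.0397 ± 0.014, 0.0424 ± 0.033 and 0.0473 ± 0.041 RPKM. Hey1 and Heyl did not overlap in any group. Jag2 and Hey1 were apart in shCBX8 and overlapped in shCBX7 and shCTR.

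**Figure D1:**
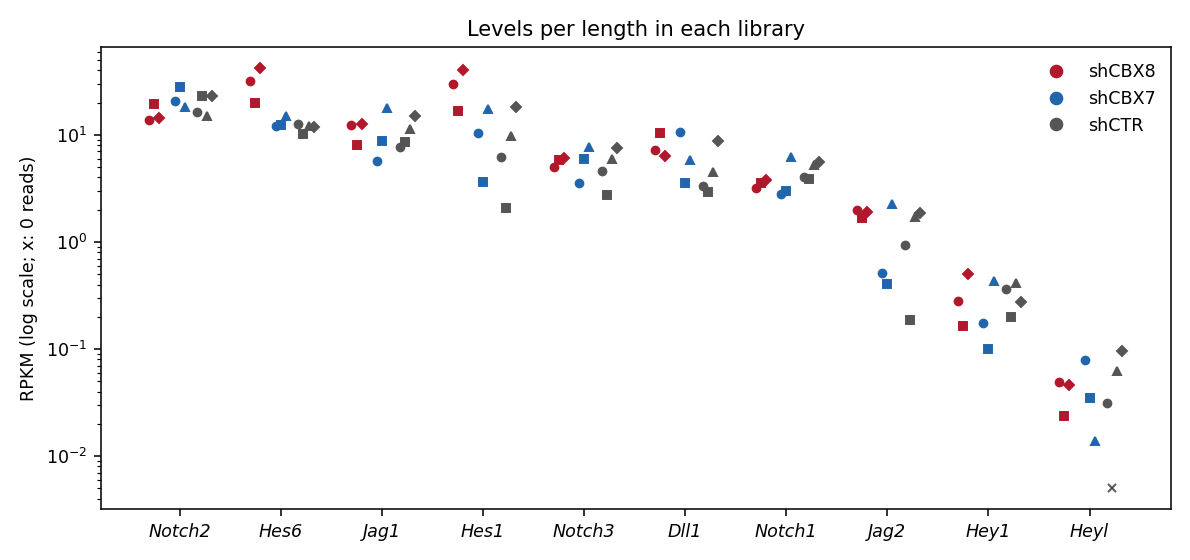
Level of each gene per kilobase of exon (RPKM, log axis) in each library; colours mark the groups, marker shapes the replicate numbers (circle 1, square 2, triangle 5, diamond 6) and a cross 0 reads. Genes run from the highest to the lowest mean in shCTR, and the shCBX8 points of Hes6 and Hes1 lie above those of Notch2 in all but replicate 2, where Hes1 is lower than Notch2.

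Hes6 rose in shCBX8 cultures, the single member of the 10 to pass the test against shCTR, and no member fell. Hes1 had the largest estimate but scattered widely within each group and did not pass. Notch1 was lower in each shCBX8 library than in any shCTR library, by less than the test requires. The other 7 members overlapped between the groups. The test was edgeR's quasi-likelihood test over all genes and all 10 libraries, with p-values adjusted by the Benjamini-Hochberg method and 0.05 as the threshold. In bulk RNA, more cells of a type and more RNA per cell cannot be told apart, which applies to each difference below.

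Hes6 measured 58.1, 36.0 and 75.6 CPM in shCBX8 1, 2 and 6, against 23.0, 18.3, 21.8 and 21.5 CPM in shCTR 1, 2, 5 and 6. All shCBX8 libraries were above all shCTR libraries, and the lowest shCBX8 value was that of replicate 2. The log2 fold change was 1.42 (SE 0.22, adjusted p = 0.00333), or 2.68-fold. Permuting the libraries exactly on the log2(CPM + 1) scale gave a two-sided p = 0.0286, and with 35 splits no smaller value is possible. The spread was also larger in shCBX8 (56.6 ± 19.8 CPM, n = 3) than in shCTR (21.1 ± 1.99 CPM, n = 4), a difference that was not tested. The 1 rise among 10 members is 10% of them, while 17% of all genes tested rose and 32.9% changed in either direction. Over all genes, 2827 rose and 2651 fell, and with library size as the only scaling 3765 rose and 1839 fell, all genes had a median of 0.17 on the log2 scale, against -0.01 with TMM scaling, and Hes6 stood at 1.61 (adjusted p = 0.00329).

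Hes1 measured 60.6, 33.8 and 82.7 CPM in shCBX8 1, 2 and 6, against 12.7, 4.21, 19.7 and 37.0 CPM in shCTR 1, 2, 5 and 6. Replicates 1 and 6 of shCBX8 were above all shCTR libraries, and shCBX8 2 was below shCTR 6. The log2 fold change was 1.68 (SE 0.68, adjusted p = 0.0860), and the exact permutation test gave p = 0.0857. With the replicate number as a block in the edgeR fit, the value was 2.18 (SE 0.32, adjusted p = 0.00428), which passes. Whether same-numbered libraries belong together is not settled by the data. Within a number, shCBX8 stood 4.78-fold above shCTR in replicate 1, 8.02-fold in replicate 2 and 2.24-fold in replicate 6. The value was 2.27 (adjusted p = 0.0373) without shCTR 6, 1.04 (adjusted p = 0.281) without shCTR 1 and 2, and 0.79 (adjusted p = 0.638) with the background measure as a covariate. DESeq2's Wald test called it (1.68, adjusted p = 0.0370).

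The other 2 target genes were near the limit of detection. Hey1, a repressor of the Hairy-related family, measured 0.922, 0.541 and 1.63 CPM in shCBX8 1, 2 and 6, against 1.19, 0.651, 1.35 and 0.893 CPM in shCTR 1, 2, 5 and 6 (log2 fold change 0.02, SE 0.54, adjusted p = 0.983). Heyl, its relative known from smooth muscle, had 4 to 12 reads in shCBX8 libraries and 0 to 17 in shCTR libraries. Its log2 fold change was -0.31 (SE 0.83, adjusted p = 0.796). The 0 reads of Heyl in shCTR 2 allow up to 0.150 CPM, counting error only. In shCTR 1 and 2, Heyl had 0.554 and 0.501 CPM on the strand opposite to transcription. On its own strand it had 0.158 and 0 CPM, so its level was not above background in these 2 libraries.

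Among the receptors, Notch1 measured 45.7, 51.0 and 53.6 CPM in shCBX8 1, 2 and 6, against 57.3, 55.0, 74.7 and 80.2 CPM in shCTR 1, 2, 5 and 6. The groups did not overlap, but the gap between 53.6 and 55.0 CPM was small. Its log2 fold change was -0.41 (SE 0.27, adjusted p = 0.264), and the exact permutation test gave p = 0.0857. Together with Hes6, 2 of the 10 members had groups that did not overlap, against 42.4% of all genes tested: 1 was higher throughout, as were 22.9% of all genes, and 1 lower throughout, as were 19.5%. An unadjusted p under 0.05 was reached by 2 members and 45.5% of all genes. Notch2 measured 148, 208 and 156 CPM in shCBX8 1, 2 and 6, against 176, 249, 161 and 248 CPM in shCTR 1, 2, 5 and 6. Its values overlapped between the groups, yet each shCBX8 library was below the shCTR library of the same number. The log2 fold change was -0.29 (SE 0.22, adjusted p = 0.336), and -0.39 (SE 0.12, adjusted p = 0.0452) with the replicate block, which passes. Notch3, a receptor best known from vessel walls, measured 40.7, 46.9 and 49.3 CPM in shCBX8, within the span of 22.2 to 60.4 CPM in shCTR (log2 fold change 0.11, SE 0.34, adjusted p = 0.812).

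The ligand genes did not pass. Dll1 measured 30.3, 44.0 and 26.9 CPM in shCBX8 1, 2 and 6, against 14.1, 12.3, 19.0 and 37.2 CPM in shCTR 1, 2, 5 and 6. The groups overlapped through shCTR 6. Its log2 fold change was 0.71 (SE 0.45, adjusted p = 0.250) and turned to -0.79 (adjusted p = 0.240) with the background covariate. Jag2 was even in shCBX8, at 13.9, 11.5 and 13.3 CPM, and scattered in shCTR, at 6.53, 1.30, 12 and 13.1 CPM (log2 fold change 0.65, SE 0.74, adjusted p = 0.527). Jag1 measured 72.6, 46.4 and 74.2 CPM in shCBX8, inside the span of 44.7 to 86.7 CPM in shCTR (log2 fold change 0.06, SE 0.38, adjusted p = 0.916). The median log2 fold change of the 10 members was 0.09, beside -0.01 for all genes tested. With standard errors of 0.22 to 0.83, changes of the size seen for Dll1 and Jag2 could not be told from none.

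**Figure D2:**
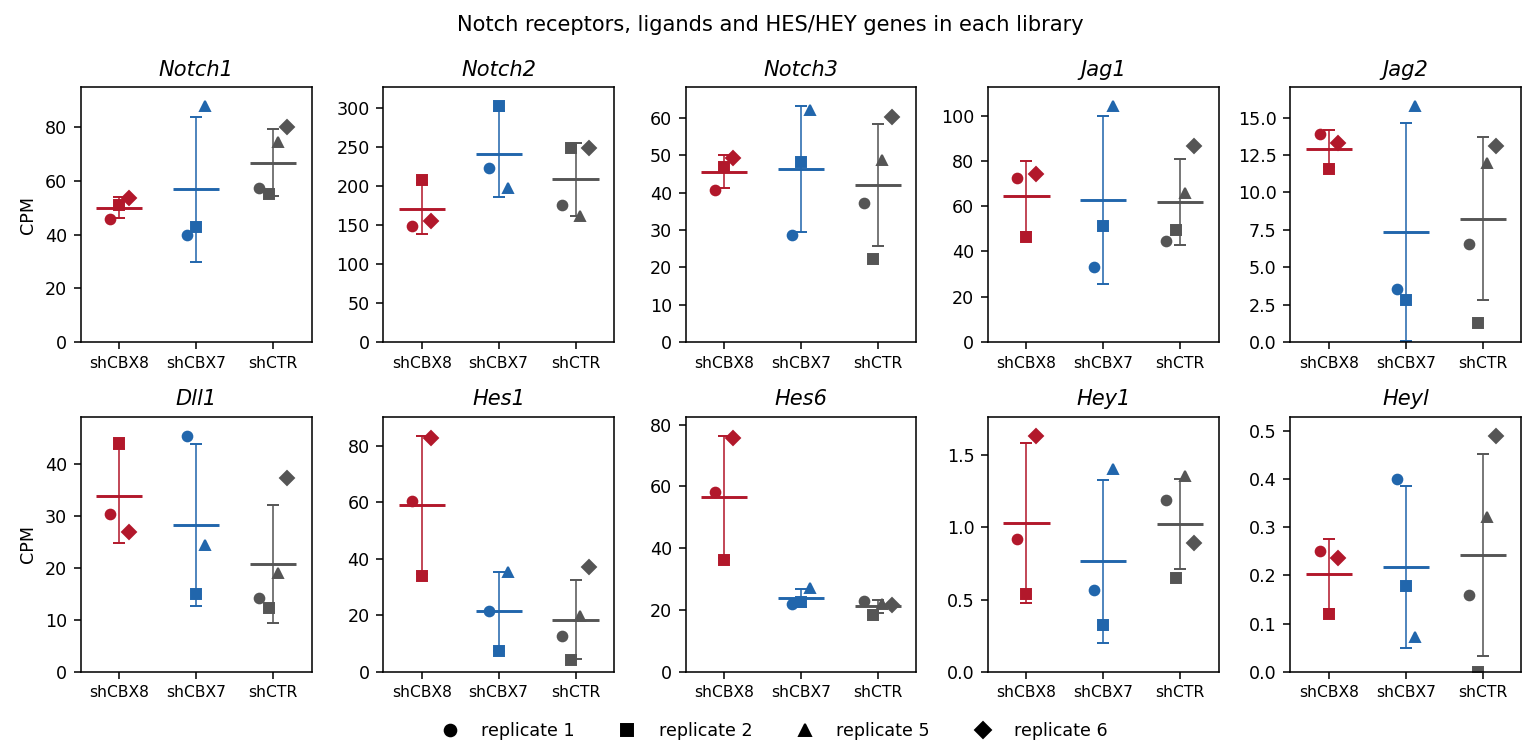
CPM of each of the 10 genes in each library (linear axes from 0); lines are group means, bars ± 1 SD, with 3 shCBX8, 3 shCBX7 and 4 shCTR libraries. Hes6 separates shCBX8 (36.0 to 75.6 CPM) from shCTR (18.3 to 23.0 CPM), and Hes1, Jag2 and Hey1 are lowest in replicate 2 of every group.

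Summed levels of progenitor, sustentacular and fibroblast markers did not overlap between shCBX8 and shCTR, and their part in the differences of Hes6 and Hes1 was not tested. The share of tested markers called was 66.7% for progenitors, 25% for sustentacular cells and glands, 16.7% for horizontal basal cells and 25% for fibroblasts, beside 32.9% of all genes. Of 8 markers of globose basal cells and progenitors, a list that holds Hes6 itself, 6 could be tested and 3 rose (Hes6, Sox2 and Lgr5), while Neurod1 fell. The 7 other markers summed to 76.6, 52.3 and 99.9 CPM in shCBX8 1, 2 and 6, against 25.7, 17.5, 29.3 and 39.1 CPM in shCTR 1, 2, 5 and 6. Neurog1 was at 0 in 6 of the 10 libraries. Of 10 markers of sustentacular cells and Bowman glands, 8 were tested and Krt8 and Krt18 rose; the summed level was 3778 to 10567 CPM in shCBX8 and 200 to 1733 CPM in shCTR, in shCBX8 nearly all of it from those 2 keratins and Aqp5. Of 6 horizontal basal cell markers Trp63 rose (log2 fold change 1.82, SE 0.41, adjusted p = 0.0116), with a sum of 1160 to 1511 CPM in shCBX8 and 489 to 1392 CPM in shCTR. Of 12 fibroblast markers 3 fell, and the sum was 343, 3268 and 223 CPM in shCBX8 1, 2 and 6, against 12182, 33893, 7583 and 5892 CPM in shCTR 1, 2, 5 and 6. In each group the library with the highest fibroblast sum was replicate 2, and there Hes1, Jag2 and Hey1 each had their lowest level. The markers Sox2, Krt8 and Krt18 were lowest there as well, so the dip was not particular to Hes1.

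Markers of other cells were called at shares on both sides of the 32.9% of all genes: 25% of those tested for neurons, 40% for mural cells, 25% for immune cells, 16.7% for ensheathing and Schwann cells and 22.2% for endothelium. The summed levels of the neuron, Schwann cell and endothelial lists overlapped between shCBX8 and shCTR, and those of the mural and immune lists did not. Of 10 markers of olfactory neurons, 8 were tested, 1 rose and 1 fell, with sums of 23.7 to 89.2 CPM in shCBX8 and 63.5 to 124 CPM in shCTR. Of 10 mural cell markers 2 rose (Rgs5 and Mcam) and 2 fell (Abcc9 and Cspg4), and their median log2 fold change was -0.86. The sums were 2107 to 6104 CPM in shCBX8, most of it from Rgs5, and 796 to 1998 CPM in shCTR. The summed level of 8 immune markers, 2 of which rose, was 99.7 to 178 CPM in shCBX8 and 30.9 to 50.01 CPM in shCTR, most of it from Cd14. Of 8 ensheathing and Schwann cell markers 6 were tested and 1 fell, and sums were 45.3 to 110 CPM in shCBX8 and 17.7 to 66.6 CPM in shCTR. Of 10 endothelial markers 9 were tested and 2 rose, with sums of 32.2 to 38.3 CPM in shCBX8 and 19.7 to 55.7 CPM in shCTR. Of the defining endothelial markers, Pecam1 reached at most 4.34 CPM and Kdr 2.10 CPM, while Cdh5 reached 13.7 CPM in shCBX8, 40.5 CPM in shCBX7 and 42.6 CPM in shCTR. Of the defining immune markers, Ptprc reached at most 1.58 CPM, Csf1r 0.863 CPM and Cd68 10.6 CPM.

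No Notch gene passed the threshold in cultures with the Cbx7 hairpin. Each of the 10 members overlapped between shCBX7 and shCTR, and estimates ran from -0.41 for Hey1 to 0.45 for Dll1. The edgeR test called 0 of 10 members and 0 of all genes tested (0%), with 0 members and 5.85% of all genes at an unadjusted p under 0.05. DESeq2 called 0 members and 91 genes in all. Non-overlap occurred for 0 members and 5.42% of all genes (1.7% higher throughout and 3.73% lower throughout). This comparison and the previous one share the shCTR libraries.

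Hes6 in shCBX7 was close to its level in control, at 21.9, 22.5 and 27.1 CPM in shCBX7 1, 2 and 5, against 23.0, 18.3, 21.8 and 21.5 CPM in shCTR 1, 2, 5 and 6 (log2 fold change 0.17, SE 0.22, adjusted p = 0.947). Hes1 measured 21.3, 7.40 and 35.4 CPM in shCBX7, all within the span of 4.21 to 37.0 CPM in shCTR (log2 fold change 0.21, SE 0.68, adjusted p = 0.984). Again replicate 2 held the lowest Hes1 level, as it did for Jag2 and Hey1. Hey1 was at 0.569, 0.327 and 1.40 CPM in shCBX7 (log2 fold change -0.41, SE 0.55, adjusted p = 0.950), and Heyl had 19, 6 and 3 reads (log2 fold change -0.21, SE 0.82, adjusted p = 0.988).

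Of the receptors and ligands, 4 genes were highest in the same shCBX7 library. In shCBX7 5, Notch1 measured 87.9 CPM, Notch3 62.2 CPM, Jag1 104 CPM and Jag2 15.8 CPM, each above all 4 shCTR libraries and above the other 2 shCBX7 libraries. Notch1 was at 39.8 and 42.8 CPM in shCBX7 1 and 2, below all shCTR libraries (log2 fold change over the group -0.23, SE 0.27, adjusted p = 0.944). Jag2 was at 3.56 and 2.79 CPM in these 2 libraries (log2 fold change -0.16, SE 0.75, adjusted p = 0.993). Notch3 in shCBX7 1 and 2 measured 28.6 and 48.1 CPM (log2 fold change 0.14, SE 0.33, adjusted p = 0.975). Jag1 measured 33.0 and 51.2 CPM there (log2 fold change 0.02, SE 0.38, adjusted p = 0.997). For Notch3 the values of the 3 shCBX7 libraries were spread out, while for Notch1, Jag1 and Jag2 shCBX7 1 and 2 lay closer together. Notch2, which was lowest in shCBX7 5, measured 224, 302 and 197 CPM in shCBX7 1, 2 and 5, against 176, 249, 161 and 248 CPM in shCTR 1, 2, 5 and 6 (log2 fold change 0.21, SE 0.22, adjusted p = 0.938). Dll1 measured 45.3, 14.9 and 24.3 CPM in shCBX7, the first of them above every shCTR library (log2 fold change 0.45, SE 0.45, adjusted p = 0.937).

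Set directly against each other, cultures with the 2 hairpins differed in Hes6, which was higher in shCBX8, and in no other member by the test. Hes6 measured 58.1, 36.0 and 75.6 CPM in shCBX8 1, 2 and 6, against 21.9, 22.5 and 27.1 CPM in shCBX7 1, 2 and 5. The groups did not overlap, and the log2 fold change was 1.25 (SE 0.24, adjusted p = 0.00786), or 2.37-fold. The exact permutation p, two-sided, was 0.1, below which 20 splits cannot go. The edgeR test called 28.6% of all genes here, 15.3% of all genes as higher in shCBX8, and 48.2% of all genes did not overlap (25.6% higher and 22.6% lower throughout), against 1 of 10 members, Hes6, by each of these counts. At an unadjusted p under 0.05 stood 1 member and 42.7% of all genes. Of all genes 2550 were higher and 2212 lower, against 3108 and 1523 with library size as the only scaling, where the median of all genes was 0.15 and Hes6 was at 1.40 (adjusted p = 0.00873). The shCBX8 libraries also enter the comparison with shCTR, so the 2 results on Hes6 are not independent. The 7 progenitor markers other than Hes6, of which Sox2 rose, summed to 76.6, 52.3 and 99.9 CPM in shCBX8 1, 2 and 6, against 25.5, 18.1 and 35.0 CPM in shCBX7 1, 2 and 5. Most of the shCBX8 sums came from Sox2. Fibroblast markers, of which 0 of 12 passed here, summed to 5700 to 18806 CPM in shCBX7, and the part of either list in the Hes6 difference was not tested.

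Hes1 measured 60.6, 33.8 and 82.7 CPM in shCBX8, against 21.3, 7.40 and 35.4 CPM in shCBX7, overlapping through shCBX8 2 and shCBX7 5 (log2 fold change 1.46, SE 0.75, adjusted p = 0.163). Notch2 measured 148, 208 and 156 CPM in shCBX8, against 224, 302 and 197 CPM in shCBX7, with shCBX8 2 above shCBX7 5 (log2 fold change -0.50, SE 0.24, adjusted p = 0.137). Jag2 was at 13.9, 11.5 and 13.3 CPM in shCBX8, against 3.56, 2.79 and 15.8 CPM in shCBX7 (log2 fold change 0.81, SE 0.80, adjusted p = 0.472). None of these 3 differences passed. Estimates for the other 6 members lay between -0.18 (Notch1) and 0.43 (Hey1), with standard errors of 0.29 to 0.87, and their median over all 10 members was 0.15, beside 0.00 for all genes tested.

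**Figure D3:**
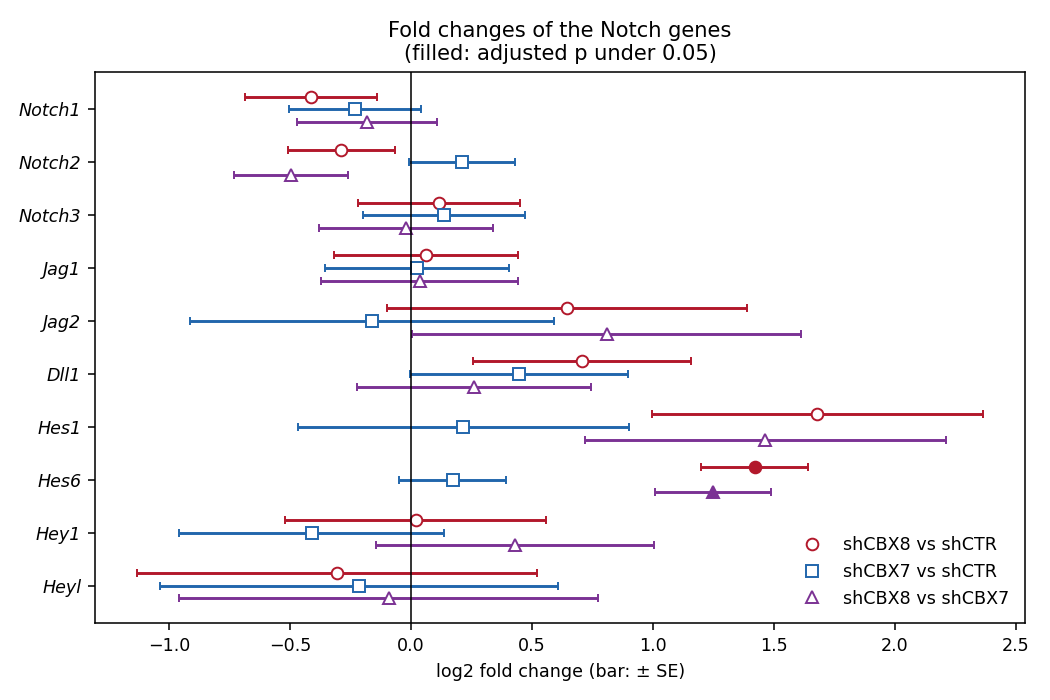
Log2 fold change (point) and standard error (bar) of each gene in shCBX8 over shCTR, shCBX7 over shCTR and shCBX8 over shCBX7; filled points passed at an adjusted p of 0.05. Hes6 is the filled gene, at 1.42 against shCTR and 1.25 against shCBX7, and the bar of Hes1 is about 3 times as long.

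**Figure D4:**
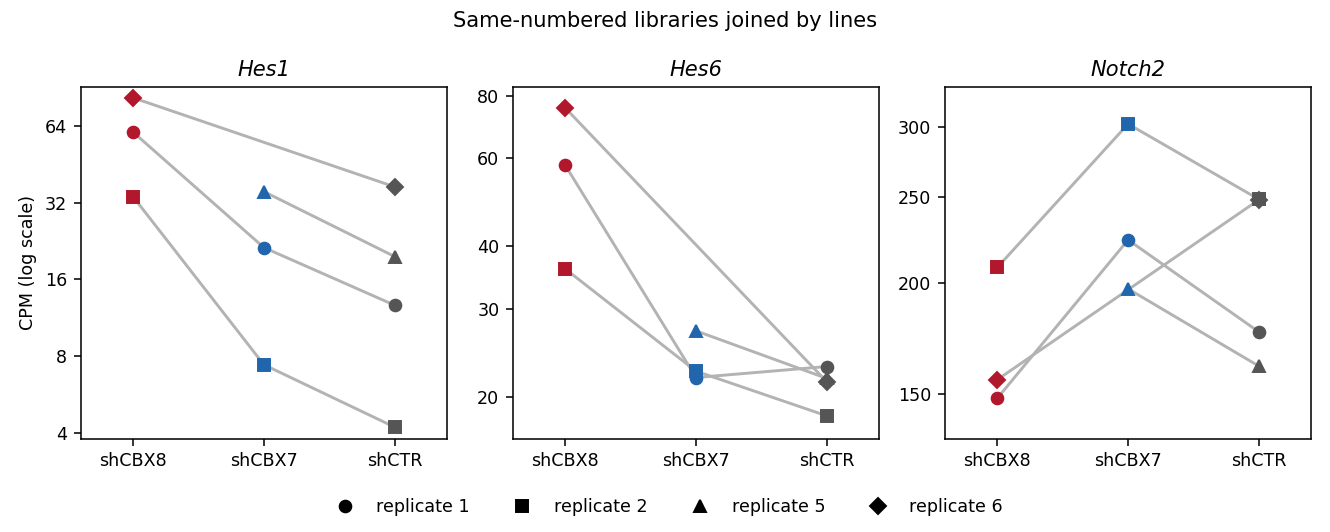
CPM (log axes, each with its own range) of Hes1, Hes6 and Notch2, with lines joining libraries of the same replicate number. Hes1 is higher in shCBX8 and in shCBX7 than in shCTR within each number, Hes6 is highest in shCBX8 in each number that holds it, and Notch2 is lower in shCBX8 than in shCTR in all 3 shared numbers.

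The rest of the pathway was read from 58 further genes grouped by role, of which 50 could be tested. In shCBX8 against shCTR, 4 of them rose and 9 fell, or 26% of those tested, less than the 32.9% of all genes. Their median log2 fold change was -0.16, beside -0.01 for all genes. Among the genes for receptor cleavage 4 of 10 fell and 1 rose, beside 15.9% of all genes that fell and 17% that rose, and without shCBX8 1 or without shCBX8 6 the calls that remained there were Adam17 and Furin. Of the 13 calls, 4 remained without shCBX8 1 and without shCBX8 6 (Adam17, Dlk2, Ep300 and Furin), 6 without shCTR 1 and 2, and 5 with the background covariate. With the replicate block 12 of the 13 calls were kept and 3 genes joined them.

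Adam17, a protease that can make the outer cut of Notch, measured 60.9, 83.9 and 45.5 CPM in shCBX8 1, 2 and 6, against 152, 231, 169 and 190 CPM in shCTR 1, 2, 5 and 6. The groups were far apart, and shCBX7, at 199, 209 and 189 CPM, stayed with the control. Its log2 fold change was -1.55 (SE 0.22, adjusted p = 0.00249). Furin, which trims Notch in the Golgi, fell by 1.04 on the log2 scale (SE 0.19, adjusted p = 0.00582), with 31.2, 47.7 and 31.8 CPM in shCBX8, against 70.9, 92.3, 63.2 and 76.4 CPM in shCTR. Psen2, a catalytic subunit of gamma-secretase, fell by 1.06 (SE 0.25, adjusted p = 0.0130). The main ADAM protease of Notch, Adam10, fell by 0.36 (SE 0.11, adjusted p = 0.0345), a smaller change that did not pass with the replicate block (-0.34, adjusted p = 0.0738). Aph1c, another gamma-secretase subunit gene, rose by 1.57 (SE 0.46, adjusted p = 0.0289); it is a close copy of Aph1b, so its counts are uncertain. The gamma-secretase subunit genes Ncstn, Aph1a, Aph1b and Psenen did not pass.

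Among the other receptors and ligands 1 of 4 tested genes fell, Dlk2, a non-canonical ligand, at a level under 1 CPM in every library (log2 fold change -1.74, SE 0.37, adjusted p = 0.00912). Notch4 (0.71, SE 0.42, adjusted p = 0.216) and Dlk1 (-3.12, SE 1.34, adjusted p = 0.0992) did not pass, though Dlk1 did with the replicate block (-3.71, SE 0.79, adjusted p = 0.0132), and Dll3 and Dll4 had too few counts to be tested. Of 8 genes for ligand ubiquitylation and receptor glycosylation 2 fell: Rfng, a Fringe glycosyltransferase (-1.20, SE 0.32, adjusted p = 0.0217), and Pofut1, which adds O-fucose to Notch (-0.74, SE 0.22, adjusted p = 0.0312). Neurl1b, a ubiquitin ligase for ligands, did not pass (-1.13, SE 0.57, adjusted p = 0.150). Of 8 genes for receptor turnover 1 rose, the Deltex gene Dtx2 (0.47, SE 0.15, adjusted p = 0.0370), while the Notch inhibitor Numb (0.37, SE 0.13, adjusted p = 0.0506) and Dtx3 (-0.52, SE 0.22, adjusted p = 0.104) did not pass. With the replicate block Dtx3 passed (-0.59, SE 0.14, adjusted p = 0.0181).

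Of 15 genes for the nuclear complex and corepressors 2 rose and 2 fell. Ep300 and Crebbp, paired histone acetyltransferases recruited by the Notch complex, fell by 0.73 (SE 0.15, adjusted p = 0.00790) and 0.68 (SE 0.18, adjusted p = 0.0222) on the log2 scale. The rises were Snw1, a cofactor of RBPJ (0.47, SE 0.12, adjusted p = 0.0190), and the histone deacetylase gene Hdac1 (0.54, SE 0.15, adjusted p = 0.0218). Rbpj itself, named here although its p was not among the 3 smallest of its role, measured 51.7, 156 and 36.8 CPM in shCBX8 1, 2 and 6, against 165, 109, 235 and 226 CPM in shCTR 1, 2, 5 and 6. It overlapped through shCBX8 2 and did not pass (-1.17, SE 0.48, adjusted p = 0.0873). It was called lower without shCBX8 2, with DESeq2 and with the background covariate.

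Of 5 tested genes among other targets and related basic helix-loop-helix genes, 0 passed. Nrarp, a feedback inhibitor that Notch switches on, measured 8.40, 5.14 and 8.64 CPM in shCBX8 1, 2 and 6, against 2.77, 0.501, 1.99 and 3.74 CPM in shCTR 1, 2, 5 and 6. Its groups did not overlap, as held for 42.4% of all genes tested, 22.9% of all genes being higher throughout. The log2 fold change of Nrarp was 1.70 (SE 0.79, adjusted p = 0.124), or 2.28 (SE 0.58, adjusted p = 0.0242) with the replicate block, which passes. Nrarp was lowest in replicate 2 of each group, as were Hes1, Jag2, Hey1 and the markers Sox2, Krt8 and Krt18. Hey2 (1.07, SE 0.61, adjusted p = 0.200) and Bhlhe40 (0.60, SE 0.39, adjusted p = 0.260) did not pass, and Hes5, the other classical HES target of neural progenitors, had too few counts to be tested.

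**Figure D5:**
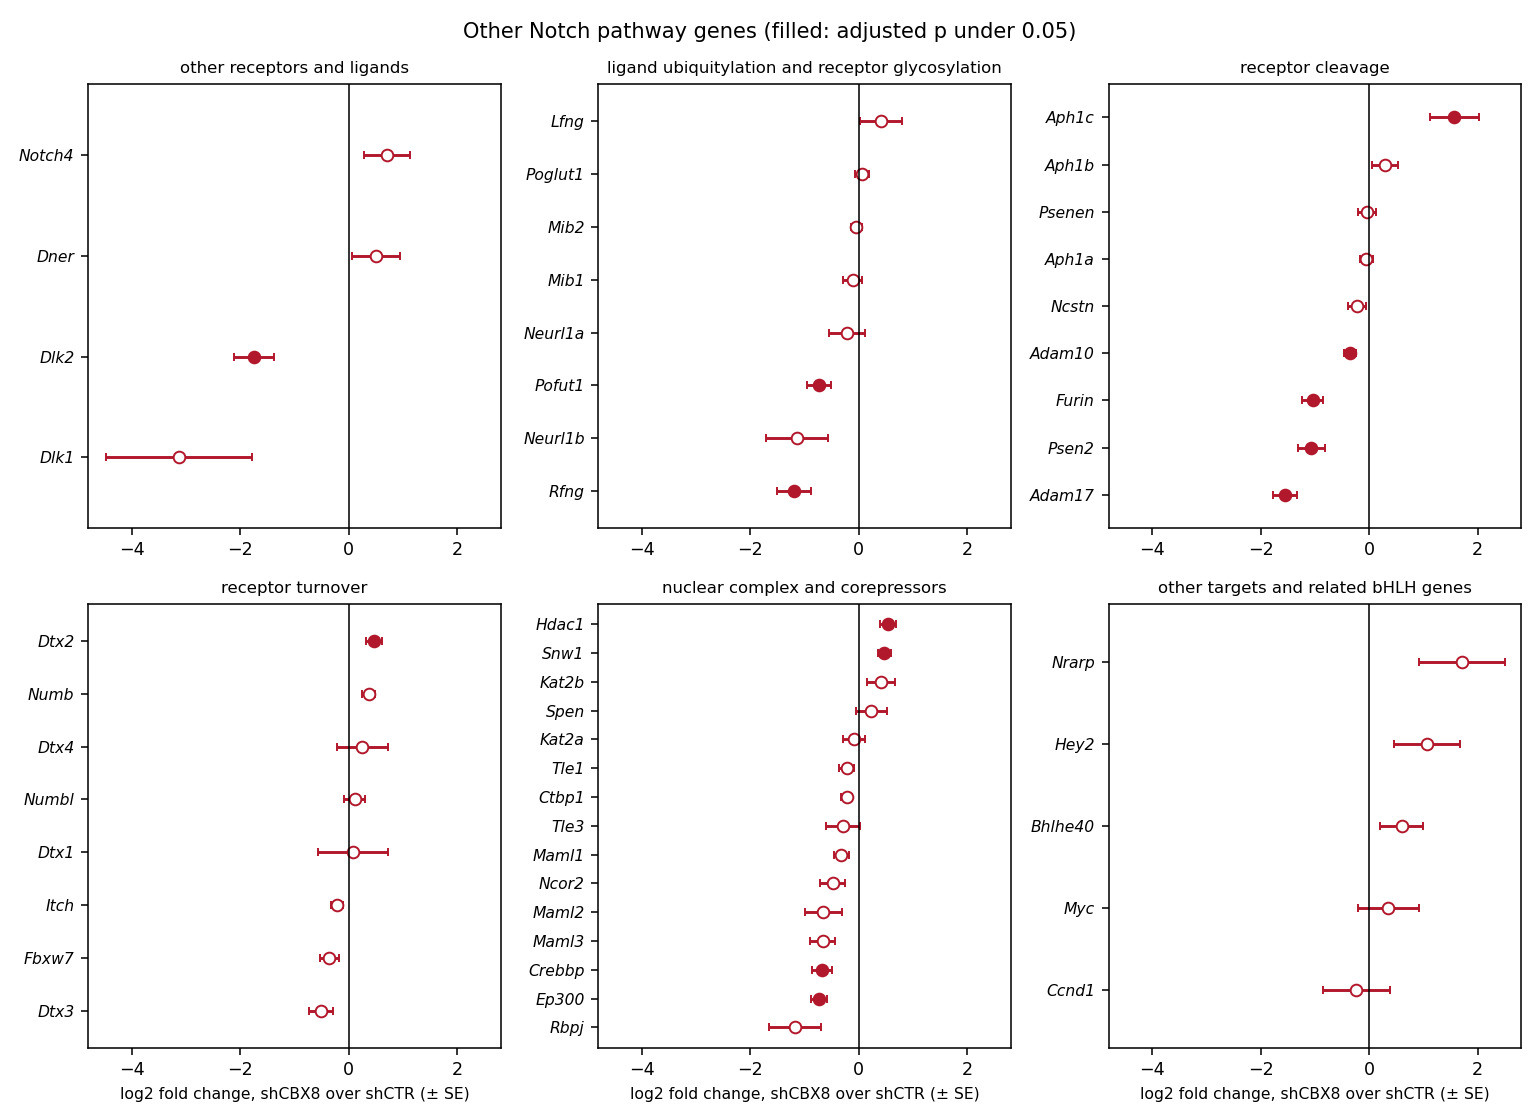
Log2 fold change in shCBX8 over shCTR (point) and standard error (bar) of all but 1 of the 50 tested pathway genes that are not among the 10 members, in 6 role groups; filled points passed at an adjusted p of 0.05. In the receptor cleavage panel Adam17, Psen2, Furin and Adam10 lie below 0 and Aph1c above, and in the panel of other targets no point is filled.

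In shCBX7 against shCTR, 0 of the 50 pathway genes passed, with 2 at an unadjusted p under 0.05 and a median log2 fold change of 0.02. DESeq2 also called 0 of them. In shCBX8 against shCBX7, 3 rose and 7 fell, 20% of those tested beside 28.6% of all genes, with a median of -0.21. Of the 10 receptor cleavage genes 3 fell and 1 rose in that comparison, and of the 5 other targets 0 passed.

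The patterns of the 4 members with the smallest p in shCBX8 against shCTR were compared with 10923 protein-coding genes over the 10 libraries, by the root mean square difference of centred log2(CPM + 1). Nearest to Hes6 were Tyro3 (0.09) and Rfk (0.12), where the median gene differed by 0.70. Nearest to Hes1 were Pdlim1 (0.24) and Cyfip2 (0.25), with a median of 1.21. Dll1 lay nearest to Nt5dc3 (0.18) and Clcf1 (0.19), with a median of 0.69, and Notch1 nearest to Smad3 (0.17) and Foxk1 (0.19), with a median of 0.49. These distances describe likeness over 10 libraries that share their groups.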

How the data were processed

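RNA was sequenced as stranded total RNA libraries made from 500 ng of RNA, per the labels' protocols. The submitters' processing notes name bcl2fastq 2.17, Trim Galore 0.4.3, STAR 2.5.0a and the mm10 build, with the annotation release not given in the sources used here. Deposited are raw counts per gene in STAR's layout, and the reverse-strand counts were used, since forward-strand counts made up 3.42 to 10.4% of the stranded gene counts. Unmapped (5.03 to 21.7% of reads), multimapping (15.4 to 22.1%), no-feature (12.5 to 23.6%) and ambiguous (0.290 to 0.637%) totals stayed out of the library sizes and the tests. Of 41091 identifiers, 40217 matched GENCODE M21.

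After filterByExpr (minimum count 10) and TMM scaling, the quasi-likelihood test of edgeR 4.0.16 (R 4.3.3) was fitted to all 10 libraries by group, with a common biological coefficient of variation of 0.375. P-values were adjusted over 16669 genes. The scripts were tested on simulated data. RPKM divides CPM by the union of a gene's GENCODE exons. No library was a copy of another of its group: in the 12 pairs within groups, chi-square was 25.5 to 393 times its degrees of freedom, which says nothing on whether they are biological replicates. Replicate numbers come from the titles. The deviations of same-numbered libraries from their group means correlated at 0.126 to 0.294 in the 3 pairs of shCBX8 and shCTR, each over 0.1. Some pairs with different numbers were over 0.1 as well, among them shCTR 5 with shCBX8 1 (0.181) and shCTR 1 with shCBX8 6 (0.129). Others were negative, down to -0.316 for shCTR 2 with shCBX8 1. Over all groups 7 of 8 same-numbered and 8 of 25 other pairs were over 0.1, with median correlations of 0.260 and -0.082. Passing 0.1 therefore does not show that the numbers pair these libraries. In shCBX7 and shCTR 2 of 3 pairs were over 0.1, replicate 2 at 0.76 and replicate 5 at 0.41, while replicate 1 was at -0.07. Whether the numbers pair libraries across groups is left undecided.

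The members, pathway lists, marker lists and alternatives were chosen with earlier results of these data known. All 10 members are named; of other pathway genes, the 3 with the smallest p in each role in shCBX8 against shCTR, plus Rbpj, Aph1c, Adam10 and Crebbp, which were chosen after their values were seen. Alternatives were RLE scaling, library size only, no filter or a mean of at least 1 CPM, DESeq2 1.42.0, unstranded counts, forward-strand counts subtracted, only the 2 groups compared, the replicate block, each library left out, shCTR 1 and 2 left out, a background covariate (log2 of the opposite-strand CPM over receptor genes), and the 10 most abundant genes left out. Single values of 2 listed genes are not reported here; they remain in the counts and sums of their lists.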

Additional observations from a re-analysis of the deposited data

How the results depend on the processing

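Hes6 kept its direction and its call against shCTR and against shCBX7 under all 12 other settings (adjusted p up to 0.0295 and 0.0307) and without each library in turn, at 1.16 to 1.66 against shCTR and 0.98 to 1.47 against shCBX7. The number of Notch genes called in shCBX8 against shCTR was 2 with DESeq2, 3 with the replicate block, and 1 to 2 with each library omitted in turn (2 when it was shCTR 6), because Hes1, and Notch2 under the block, joined Hes6. In shCBX8 against shCBX7 the replicate block gave 3 (Hes6, Hes1 at 1.57, adjusted p = 0.0209, and Notch2 at -0.64, adjusted p = 0.0168), beside 1 otherwise. Only 2 pairs share a number there, correlated at 0.169 and 0.360, so the pairing is not settled for these groups either. The block changed no other call of a Notch gene. In shCBX7 against shCTR 0 Notch genes were called under every setting run.

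Over all genes, shCBX8 against shCTR gave 2308 calls with the background covariate, 2409 without shCTR 1 and 2, and 2261 to 6193 when a library was left out (2261 without shCBX8 1, 2279 without shCBX8 6). Against shCBX7 the range was 1784 to 6005, with 1848 without shCBX8 1, 1784 without shCBX8 6, 2730 without shCBX7 1 and 2900 without shCBX7 2. In shCBX7 against shCTR, DESeq2 called 91 and leaving out a library gave 0 to 41 (41 without shCTR 6). Of the other pathway genes, shCBX8 against shCTR gave 8 without shCTR 1 and 2 (6 of the 13 calls kept) and 4 to 17 when a library was left out; against shCBX7 it gave 18 with DESeq2, 6 with only the 2 groups compared, 5 with the covariate, and 2 to 14 when a library was left out (6 and 5 without shCBX7 1 and 2, 3 and 2 without shCBX8 1 and 6). The cause was not tested.

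Values that changed sign were all of genes that did not pass. In shCBX8 against shCTR, without shCTR 1 and 2, Notch3 was at -0.27, Jag1 at -0.26 and Hey1 at -0.13; with the covariate Notch3 was at -0.38, Jag1 at -0.13 and Dll1 at -0.79; and Hey1 was at -0.0081 with forward-strand counts subtracted, -0.0064 with only the 2 groups and -0.00076 without the 10 most abundant genes. In shCBX7 against shCTR, without shCTR 1 and 2, Notch3 was at -0.24, Jag1 at -0.29 and Hes1 at -0.41; with the covariate Notch2 was at -0.29, Notch3 at -0.53, Jag1 at -0.25, Dll1 at -1.67, Hes1 at -1.19 and Hey1 at 0.48; Jag1 was at -0.0025 with a mean of at least 1 CPM and -0.014 with forward-strand counts subtracted, and Heyl at 0.13 with the block. In shCBX8 against shCBX7, Notch3 was at 0.11 with library size only, 0.029 with a mean of at least 1 CPM, 0.038 with the block and 0.15 with the covariate; Heyl was at 0.087 with library size only, 0.093 with unstranded counts and 0.65 with the covariate; and Notch1 was at 0.016 with the block. When a library was left out, ranges that crossed 0 were, against shCTR, -0.12 to 0.34 for Notch3, -0.099 to 0.27 for Jag1 and -0.47 to 0.32 for Hey1 in shCBX8, and -0.13 to 0.40 for Notch3, -0.54 to 0.35 for Jag1, -1.37 to 0.24 for Jag2, -0.066 to 0.89 for Dll1, -0.35 to 0.81 for Hes1 and -1.03 to 0.21 for Heyl in shCBX7. Between shCBX8 and shCBX7 they were -0.42 to 0.27 for Notch1, -0.31 to 0.24 for Notch3, -0.31 to 0.60 for Jag1, -0.090 to 0.75 for Dll1, -0.067 to 1.18 for Hey1 and -0.52 to 0.70 for Heyl.

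Hey1 and Heyl fall under a mean of 1 CPM, and Heyl could not be fitted under several stricter filters. At 0 to 19 reads per library for Heyl and 11 to 76 for Hey1, depth limits what can be said of both. Groups of 3 and 4 libraries, and 4 control libraries that differ in background, limit the rest.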
